A study of Mus musculus with 20 samples.

Results

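The comparison described here is the difference between POLE-mutant and vector CT26 tumours that held under both treatments of the study. All 20 libraries of the series entered it, 10 mutant and 10 vector, each from 1 tumour. CT26 is a colon carcinoma cell line of BALB/c mice. The 4 groups of 5 libraries were vector tumours given PBS, vector tumours given anti-PD-1, POLE-mutant tumours given PBS and POLE-mutant tumours given anti-PD-1; anti-PD-1 is an antibody against an inhibitory receptor of T cells. Every gene was compared with treatment as a term. A gene was called treatment-independent when its mean mutant minus vector difference passed an adjusted p of 0.05, the difference had the same sign under PBS and under anti-PD-1, and the unadjusted p of the interaction between genotype and treatment was at least 0.05. That is a selection and no test that the 2 differences were equal. The labels give neither the age of the mice nor how the mutant cells were made, and they name no separate clones, so the mutation cannot be told apart from any other difference between the 2 lines of cells. The series title names CHEK2 where the sample labels name POLE. Animal identifiers in the sample titles are the only sign that libraries came from separate mice, so the p-values measure the spread between these libraries.

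POLE is the catalytic subunit of DNA polymerase epsilon, which copies the leading strand and proofreads it through an exonuclease domain. Tumours with mutations in that domain carry many point mutations, and such tumours are often rich in T cells. T cells and natural killer cells release interferon-gamma, which raises guanylate-binding proteins, immunity-related GTPases, antigen presentation genes and the chemokines CXCL9 and CXCL10 in tumour and host cells alike. A bulk tumour library mixes all of these cells, and in it fewer cells of a type and less RNA per cell cannot be told apart.

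The libraries held 11182 to 13769 genes at 1 FPKM or more, and mitochondrial genes took 2.85% to 11.1% of the summed FPKM. Both lowest values were those of vector anti-PD-1 replicate 1, whose summed FPKM was 566913 against a median of 355875. FPKM relates the reads of a gene to its length and to all reads of the library; the depth behind it is unknown here, because at the best step only 16.4% to 20.8% of the low values lay within 5% of a whole read. No pair of libraries was identical. 3 libraries stood apart from the rest by their mean Spearman correlation with the others, namely mutant anti-PD-1 replicate 1 at 0.748, vector anti-PD-1 replicate 1 at 0.776 and mutant anti-PD-1 replicate 2 at 0.835, against a median of 0.919. Of the 17 epithelial markers listed, Krt20 (median 55.7 FPKM), Tjp1 (22.5 FPKM) and Krt18 (10.9 FPKM) were clearly expressed. Epcam and Cdh1, the usual defining epithelial genes, were near absent, with medians of 0.107 and 0.308 FPKM.

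Of 13982 genes tested, 3455 (24.7%) differed between mutant and vector tumours in the mean over both treatments. Of these, 1906 (13.6% of the genes tested) were higher and 1549 (11.1%) lower in mutant tumours; with quantile normalization the higher share of the calls was 42.2% in place of 55.2%. The treatment-independent rule kept 1534 of the 3455, which is 44.4%. It kept 576 genes higher in mutant tumours (4.12% of the genes tested) and 958 lower (6.85%). More rises than falls were large: 105 of the 576 rises and 39 of the 958 falls reached 2-fold in FPKM + 1. The median rise and fall were near in size, at 0.51 and -0.45 on the log2(FPKM + 1) scale. Treatment itself had an unadjusted p of at least 0.05 in 355 of the 576 rises and 666 of the 958 falls. At the border of the rule, Tgm2 and Pfkfb3 lay just inside with interaction p-values of 0.0502 and 0.0503, and Gm13436 and H2-K1 lay just outside, both at 0.0497. The median difference over all genes tested was 0.006 on the log2(FPKM + 1) scale. Without the 3 libraries that stood apart the rule kept 2523 genes.

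The PBS tumours and the anti-PD-1 tumours share no library, so each set was also fitted alone. The fit under PBS called 924 genes (6.61%) and the fit under anti-PD-1 called 2343 (16.8%). Both called 229 genes with the same sign (1.64% of the genes tested), 68 higher and 161 lower, and 6 with opposite signs. The 229 are 24.8% of the PBS list and 9.77% of the anti-PD-1 list. Of the 229, 191 were also treatment-independent, by a rule that used the same libraries. Of the 924 genes called under PBS, 701 (75.9%) had the same sign under anti-PD-1, against 60.6% of all genes tested. The interaction was called for 1308 genes (9.35%), of which 1035 had the more positive mutant minus vector difference under anti-PD-1. Leaving out single libraries moved the count called in both sets between 114 and 433 and the interaction count between 688 and 2247; the high ends came without vector anti-PD-1 replicate 1 and the low ends without mutant anti-PD-1 replicate 2.

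**Figure D1:**
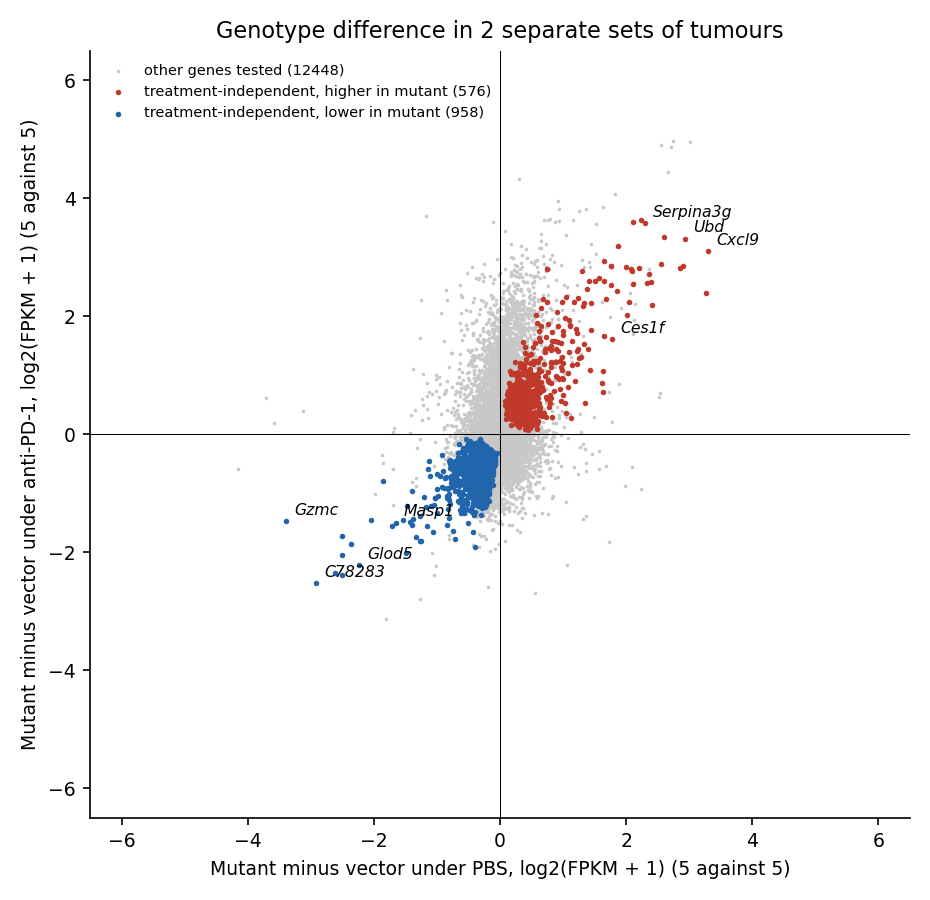
Mutant minus vector difference of each gene tested under PBS (x) and under anti-PD-1 (y), on the log2(FPKM + 1) scale, each from 5 against 5 libraries. The 576 treatment-independent rises (red) and 958 falls (blue) lie in the quadrants of equal sign because the rule chose them so; the grey cloud, which holds the interaction genes, spreads further along the y axis.

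Pole itself was lower in the mutant tumours. Its level was 6.45, 7.38, 9.50, 9.35 and 10.4 FPKM in vector PBS tumours and 4.14, 4.63, 5.27, 6.35 and 5.73 FPKM in mutant PBS tumours. Under anti-PD-1 it was 4.05, 7.12, 10.02, 7.32 and 9.02 FPKM in vector and 1.30, 3.40, 4.75, 4.52 and 5.71 FPKM in mutant tumours. The PBS groups did not overlap, and under anti-PD-1 only vector replicate 1 lay within the mutant range. The mean difference was -0.78 ± 0.13 (SE, log2 scale, adjusted p = 0.000332), with an interaction p of 0.246. Pole was called in both separate sets, at -0.62 (adjusted p = 0.0109) and -0.97 (0.0154). A gene-level FPKM does not show a mutation and cannot check the genotype label. Chek2, the checkpoint kinase of the series title, differed by -0.04 ± 0.09 (adjusted p = 0.81).

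Among the 36 genes of the replicative polymerases and helicases, 6 were lower and none higher, 4 of them treatment-independent, with a list median of -0.20 (-0.07 without the 3 libraries that stood apart and -0.0026 among number-only libraries). Mcm6, a subunit of the replicative helicase, fell by 0.65 (adjusted p = 0.00187). Rpa3, of the single-strand binding complex, and Pole3, an accessory subunit of polymerase epsilon, passed the mean contrast at -0.52 and -0.31 but were not treatment-independent, since their interaction p were 0.0135 and 0.00479; both lost their calls among number-only libraries. In the cell cycle list 11 of 33 genes were lower, all treatment-independent, and 1 was higher; the median was -0.37. Its falls included Cenpe, a kinesin of the kinetochore, at -0.76, Bub1, a spindle checkpoint kinase, at -0.60, Ttk at -0.52 and Ccna2, cyclin A2, at -0.47. Without the 3 libraries that stood apart 8 of 33 were lower and the list median was -0.19, and among number-only libraries the median was -0.09. Cenpe, Ttk and Ccna2 lost their calls among number-only libraries (adjusted p = 0.103, 0.157 and 0.0983), and Bub1 and Ttk lost theirs without the identifier style term (0.0553 and 0.0566). In the DNA repair list 4 of 38 were lower and none higher. Xrcc5, which encodes the Ku80 subunit of the end-joining complex, was 22.0 to 28.4 FPKM in vector PBS, 19.3 to 21.0 in vector anti-PD-1, 12.5 to 18.1 in mutant PBS and 3.85 to 11.5 in mutant anti-PD-1 tumours, so that no mutant library reached a vector one. Its interaction p of 0.00851 keeps it out of the treatment-independent genes. Over all genes tested, 11.1% were lower and 13.6% higher, and 6.85% were treatment-independent falls.

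The 15 largest treatment-independent falls were picked by size in these same libraries. Of them 7 separated all 10 mutant from all 10 vector libraries, against 0.694% of all genes tested. C78283, a lincRNA, was 5.42 to 8.21 FPKM in vector PBS tumours and 0.959, 7.28, 4.93, 5.63 and 7.46 FPKM in vector anti-PD-1 tumours. In the mutant tumours it was listed at 0 in 9 of 10 libraries and at 0.0769 FPKM in mutant anti-PD-1 replicate 5. No vector library came near the mutant level (adjusted p = 1.75e-07). Gm773, a predicted gene chosen after its values were seen, was 2.92 to 7.71 FPKM in the vector tumours and listed at 0 in all 10 mutant tumours (adjusted p = 1.19e-10).

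Glod5, a glyoxalase-domain protein, was 11.3, 11.1, 9.85, 9.12 and 8.10 FPKM in vector PBS tumours and 17.7, 4.49, 5.15, 8.32 and 11.2 FPKM in vector anti-PD-1 tumours. The mutant tumours had 0, 1.83, 1.80, 1.34 and 2.51 FPKM under PBS and 0.348, 0.754, 1.38, 1.19 and 2.27 FPKM under anti-PD-1. Every mutant library was below every vector library, with a mean difference of -2.22 ± 0.24 (adjusted p = 1.07e-05). Masp1, a serine protease of the lectin pathway of complement, was 3.24 to 4.46 FPKM in vector PBS and 1.44 to 4.62 in vector anti-PD-1 tumours, against 0.421 to 0.880 and 0.460 to 0.831 in the mutant ones. It differed by -1.57 ± 0.13 (adjusted p = 5.85e-07) and stayed called in all 33 alternative fits that gave it a value. Dusp9, a phosphatase that acts on ERK, separated likewise, at 5.57 to 9.97 FPKM in the vector and 0.547 to 3.71 FPKM in the mutant tumours, with a difference of -1.53 ± 0.13.

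Klhdc8a at -1.50, Dkk2, a secreted inhibitor of Wnt signalling, at -1.50, and the zinc finger gene Zfp988 at -1.40 completed the genes without overlap. Zfp988 and Zfp978 (-1.44) are neighbours on chromosome 4, at 147305674-147333734 and 147361303-147391004 in mm10, and zinc finger genes of this kind share sequence, so that reads may be split between them. Dio2, the deiodinase that activates thyroid hormone, fell by 2.02 ± 0.27, and its only overlap was vector anti-PD-1 replicate 1 at 2.07 FPKM below mutant anti-PD-1 replicate 3 at 2.54 FPKM. Oplah, which encodes 5-oxoprolinase of glutathione turnover, was 3.48, 3.90, 3.98, 14.6 and 24.5 FPKM in vector PBS and 0.204 to 0.638 in mutant PBS tumours. Its difference was -2.52 ± 0.36, with vector anti-PD-1 replicate 1 at 1.07 FPKM the lowest vector value. Cldn9, a claudin, differed by -1.72 and Tcim by -1.46, both with some overlap.

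**Figure D2:**
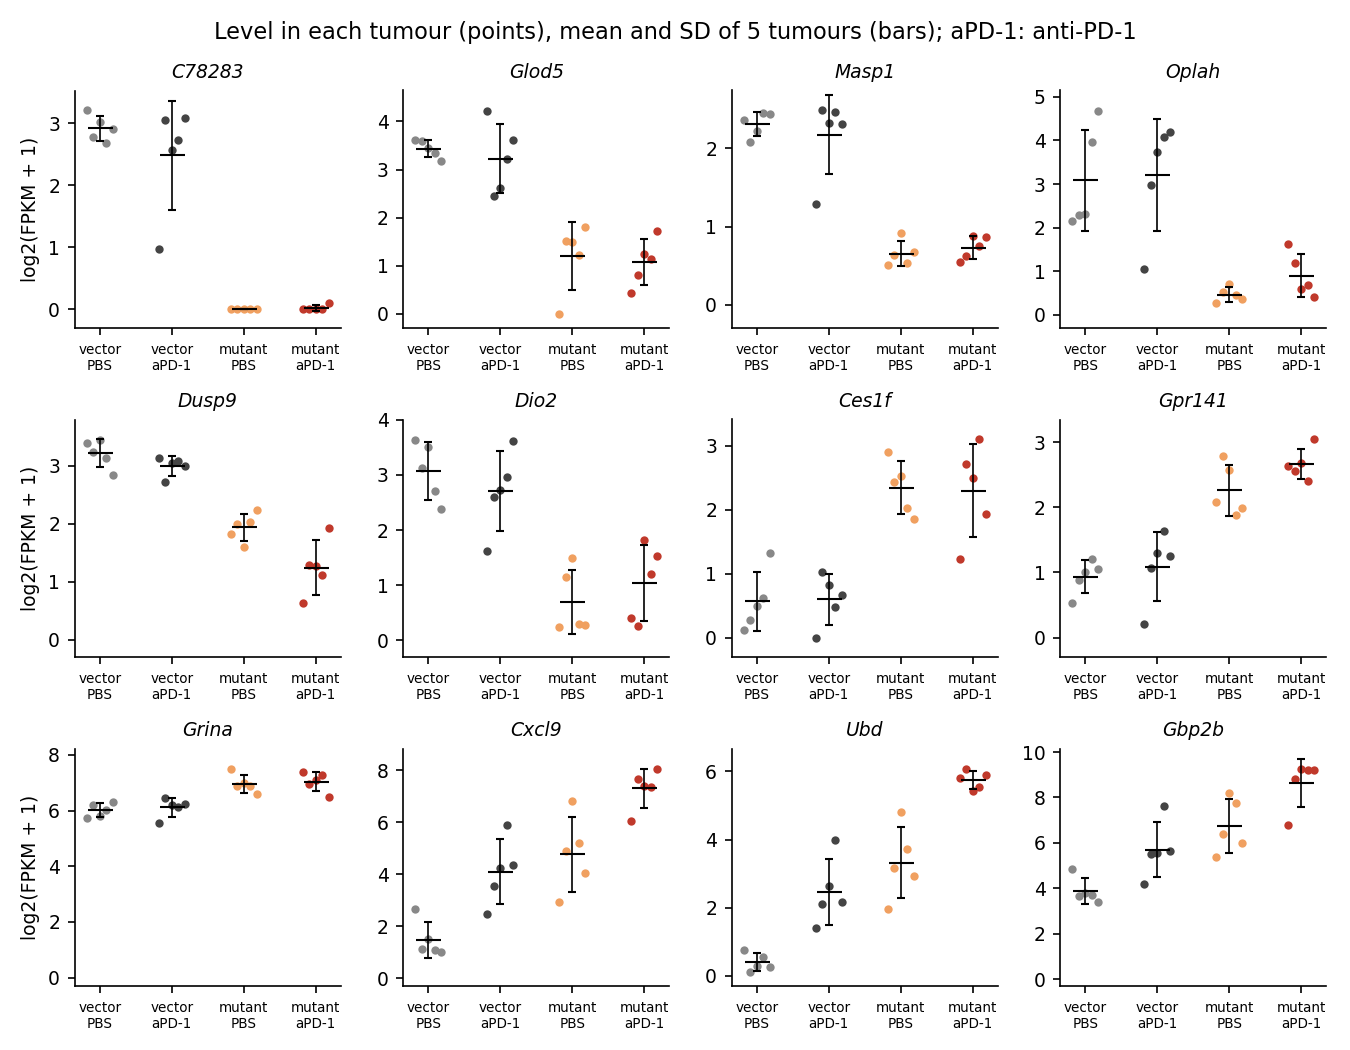
Level of 12 genes in each of the 20 tumours, as log2(FPKM + 1), with the mean and SD of each group of 5. Glod5, Masp1, Dusp9 and C78283 leave a gap between all mutant and all vector tumours; Gpr141 and Grina leave one in the other direction; Cxcl9, Ubd and Gbp2b rise with both genotype and anti-PD-1 and overlap between groups.

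2 of the largest falls, Gzmc and Lyve1, are genes known mainly from host cells. Gzmc, a granzyme, was 6.94 to 96.5 FPKM in vector PBS and 0.718 to 4.92 in mutant PBS tumours, without overlap, and 9.25 to 99.6 against 5.39 to 44.8 under anti-PD-1, with overlap. Its mean difference was -2.43 ± 0.48 and its interaction p 0.0563, at the border of the rule; among number-only libraries it was -1.81 and not called (adjusted p = 0.068). Of the 5 granzyme cluster genes tested, 4 were lower and 3 had an interaction, against 11.1% and 9.35% of all genes tested. The cluster median was -3.59 under PBS and 0.18 under anti-PD-1, so the fall of the cluster lay in the PBS tumours. Summed FPKM of the T cell markers was 3.23 to 9.53 in vector PBS and 11.1 to 30.1 in vector anti-PD-1 tumours. It was 4.06 to 90.1 in mutant PBS and 175 to 318 in mutant anti-PD-1 tumours. None of the 17 markers was listed at 0 in a whole group. Lyve1, a hyaluronan receptor of lymphatic endothelium and of some macrophages, fell by 2.17 ± 0.38, from 2.38 to 36.4 FPKM in the vector tumours to 0.195 to 11.3 in the mutant tumours. Cbr2, a carbonyl reductase, fell by 1.73 ± 0.46, but its difference was -0.90 among M-style libraries and was not called there (adjusted p = 0.224). The summed FPKM of 20 macrophage markers was 1607 to 2235 in vector PBS, 1091 to 2719 in vector anti-PD-1, 1093 to 2611 in mutant PBS and at least 3961 in mutant anti-PD-1 tumours. Of the 6 lymphatic markers listed, Prox1, Mmrn1 and Ccl21a had medians of 0 over all libraries. Flt4 had a median of 0.373, Lyve1 of 6.70 and Pdpn of 36.7 FPKM. The part of such cells in these falls was not tested.

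Of the 15 largest treatment-independent rises, 10 stand in the interferon-gamma response list. Cxcl9, the chemokine that draws CXCR3-bearing T cells, was 5.27, 1.18, 1.87, 1.13 and 0.995 FPKM in vector PBS tumours and 6.58, 28.5, 112, 35.4 and 15.6 FPKM in mutant PBS tumours. Under anti-PD-1 it was 4.50, 10.6, 17.9, 57.5 and 19.4 FPKM in vector and 65.6, 201, 168, 161 and 260 FPKM in mutant tumours. The groups did not overlap within either treatment, but vector anti-PD-1 tumours reached the mutant PBS range. The difference was 3.25 ± 0.46 (adjusted p = 8.59e-05), at 3.30 under PBS and 3.20 under anti-PD-1. Ubd, a ubiquitin-like modifier, rose by 3.11 ± 0.31. Gbp2b, a guanylate-binding protein, rose by 2.88 ± 0.44, from 9.41 to 27.8 FPKM in vector PBS to 40.4 to 289 in mutant PBS tumours, and from 17.3 to 193 to 110.4 to 600.4 FPKM under anti-PD-1.

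The other rises included Gbp4 (3.02), Gbp10 (2.58), Gbp2 (2.55) and Gbp6 (2.35) among the guanylate-binding proteins and Tgtp1 (2.92), Tgtp2 (2.76), Iigp1 (2.60) and Igtp (2.46) among the immunity-related GTPases, which attack vacuoles of intracellular microbes. Tgtp1 and Tgtp2 are near-identical copies, and reads may be split among them and among the Gbp genes, which leaves the value of each one uncertain. Serpina3g, a serine protease inhibitor, rose by 2.95, H2-DMb1, a chaperone of MHC class II loading, by 2.87, and Gvin1, a very large GTPase, by 2.47. H2-DMb1 lay at the border of the rule, with an interaction p of 0.0523. It differed by 2.11 under PBS and 3.63 under anti-PD-1. All 15 had a treatment effect with an unadjusted p under 0.05. None separated all 20 libraries, as 0.236% of all genes tested did with mutant above. In both separate sets 10 were called, against 1.64% of all genes tested. The groups under PBS were separated by 12, for which no share over all genes was computed. The 15 were picked by size in these same libraries, so these counts are no separate evidence. Gbp2 lost its call among the libraries with M-style identifiers alone (adjusted p = 0.0816).

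Car3, a carbonic anhydrase of muscle and fat, was the exception among the 15. It was 0 to 0.376 FPKM in vector PBS and 0 to 41.5 FPKM in mutant PBS tumours, and the rise of 2.54 ± 0.65 lost its call among number-only libraries and with a skeletal muscle term. The summed FPKM of 19 skeletal muscle markers was 11.7 to 24.0 in vector PBS, 10.6 to 675 in vector anti-PD-1, 8.22 to 1383 in mutant PBS and 136 to 2082 in mutant anti-PD-1 tumours. Of the 18 tested, 4 rose, all treatment-independent, and 6 of 7 adipocyte markers rose, 4 of them treatment-independent. Among all genes tested 13.6% were higher and 4.12% were treatment-independent rises. Without the 3 libraries that stood apart 2 muscle and 3 adipocyte markers rose. The part of adjoining muscle and fat in those rises was not tested.

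Promoters of these genes are shown because they rose together. Each line gives the 250 bases before the RefSeq transcription start (GRCm38.p6), 5' to 3' on the gene's strand. Capitals mark the ISRE-like letters GAAANNGAAA and the GAS-like letters TTCNNNGAA, patterns known from promoters of interferon-stimulated genes; both strands were searched and the 2 patterns can share letters. Cxcl9 lies at chr5:92328080-92328329, minus strand, Gbp2b at chr3:142594597-142594846, plus strand, and Igtp at chr11:58199306-58199555, plus strand.
Cxcl9: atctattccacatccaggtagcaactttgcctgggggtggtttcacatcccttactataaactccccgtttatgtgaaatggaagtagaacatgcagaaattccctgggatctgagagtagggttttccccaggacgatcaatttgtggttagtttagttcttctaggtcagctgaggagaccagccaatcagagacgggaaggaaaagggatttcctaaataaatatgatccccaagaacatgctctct
Gbp2b: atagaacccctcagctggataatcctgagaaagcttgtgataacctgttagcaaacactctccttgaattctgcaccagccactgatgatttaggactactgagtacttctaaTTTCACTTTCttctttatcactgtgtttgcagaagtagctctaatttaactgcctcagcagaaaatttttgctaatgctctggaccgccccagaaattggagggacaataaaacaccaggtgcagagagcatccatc
Igtp: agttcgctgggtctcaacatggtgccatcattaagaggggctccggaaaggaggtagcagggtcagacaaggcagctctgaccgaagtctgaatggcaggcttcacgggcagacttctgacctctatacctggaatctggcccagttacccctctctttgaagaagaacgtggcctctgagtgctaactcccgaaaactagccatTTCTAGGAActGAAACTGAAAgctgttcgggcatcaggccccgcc
Cxcl9, the largest rise, holds neither pattern in this window, Gbp2b holds the ISRE-like letters 137 bases before the start, and Igtp holds both, 34 and 45 bases before it. Promoter windows were found for 9 of the 15 rises, of which 5 hold the ISRE-like and 4 the GAS-like pattern. Among all 9373 genes tested that have a window, 3.49% hold the ISRE-like and 7.28% the GAS-like pattern. Of 390 treatment-independent rises with a window the shares were 9.74% and 9.23%, and of 594 falls 3.37% and 7.74%. A match describes letters and says nothing of binding.

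All 25 genes of the interferon-gamma list rose, 21 of them treatment-independent and 2 with an interaction, with a list median of 2.21 against 0.006 over all genes. The list was chosen with earlier results of these data known. All 15 T cell genes and 13 of 20 macrophage genes rose as well, none of them treatment-independent, and 15 and 13 genes of these lists had an interaction. Most T cell genes had a median under 1 FPKM, where log2(FPKM + 1) compresses differences. With log2(FPKM + 0.1) the T cell list median was 2.33 in place of 1.58. The interaction count over all genes was then 876 in place of 1308. Of 13 cytotoxic lymphocyte genes 10 rose, of 5 NK cell genes 3, of 5 B and plasma cell genes 4 and of 7 dendritic cell genes 6, the last with 2 treatment-independent. Among all genes tested 13.6% were higher, 4.12% were treatment-independent rises and 9.35% had an interaction. Without the 3 libraries that stood apart all 25 interferon-gamma genes and all 15 T cell genes rose, 21 and 0 of them treatment-independent, and 10 macrophage genes rose while 2 fell. Cd3d, of the T cell receptor complex, differed by 0.58 under PBS and 2.97 under anti-PD-1, and Cd8b1 by 0.93 and 3.65. Cd28, a costimulatory receptor, was 0.0665 to 1.17 FPKM in mutant PBS and 3.05 to 3.57 FPKM in mutant anti-PD-1 tumours. Of the MHC class II genes 7 of 7 rose and 1 was treatment-independent (4 without those libraries); H2-Eb1 (2.74 under PBS, 4.98 under anti-PD-1), H2-Ab1 (2.70 and 4.88) and Cd74 (2.66 and 4.45), the invariant chain, were called in both separate sets. Of the MHC class I and peptide loading genes 12 of 16 rose and 7 were treatment-independent; Nlrc5, their transactivator, differed by 1.66, H2-D1 by 0.85 and B2m by 0.80, each with an unadjusted interaction p under 0.05. Of 24 type I interferon genes 21 rose, 3 of them treatment-independent.

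**Figure D3:**
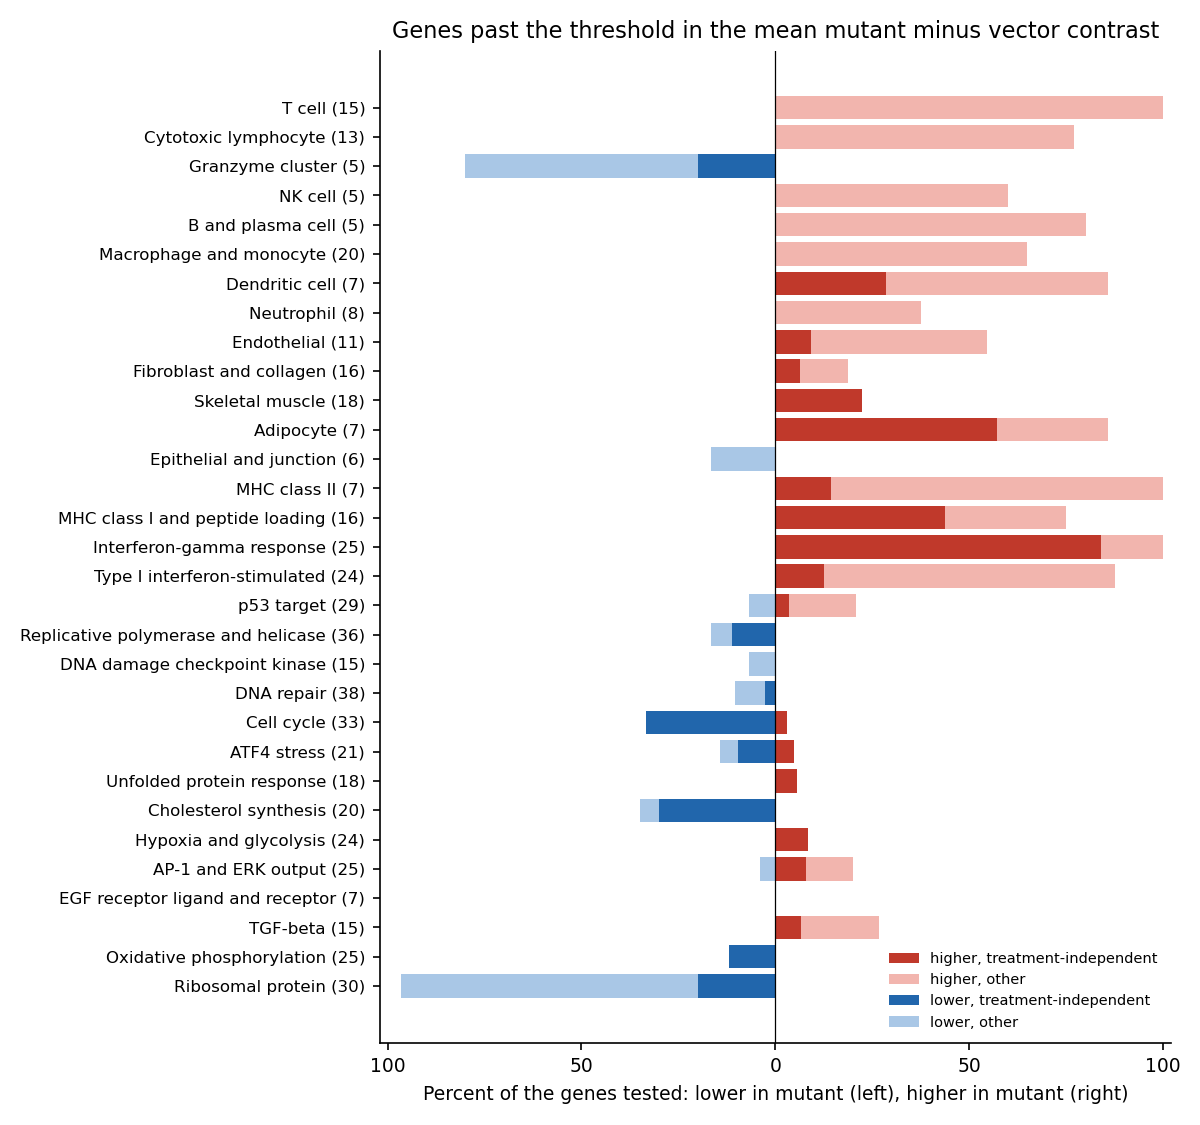
Percent of the genes tested in each list (number in brackets) that passed the mean mutant minus vector contrast, lower in mutant to the left and higher to the right, dark where treatment-independent. The interferon-gamma bar is mostly dark red, the T cell and macrophage bars are pale throughout, and the cell cycle and cholesterol bars are mostly dark blue.

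Other lists moved less. Of 20 cholesterol synthesis genes 7 were lower and none higher, 6 of them treatment-independent, with a median of -0.37. Hmgcs1, which makes HMG-CoA, fell by 0.62, Mvd by 0.55, Cyp51 by 0.73 and Fdft1, squalene synthase, by 0.71. All 4 lost their calls among number-only libraries, with adjusted p of 0.0595 to 0.254, and Cyp51 and Fdft1 also lost theirs without the 3 libraries that stood apart. The list median was -0.23 among number-only libraries. Of 30 ribosomal protein genes 29 were lower, but 6 were treatment-independent (19 without the 3 libraries that stood apart), and the median was -0.19 under PBS and -1.04 under anti-PD-1; over both it was -0.60, and -0.21 among number-only libraries. Rpl7 and Rpl31 separated all mutant from all vector libraries, at 244 to 439 against 450 to 688 FPKM and at 202 to 316 against 322 to 1171 FPKM. Ribosomal protein genes have many processed copies, among them Rpl31 copies that were also lower, so these values are uncertain. Of 29 p53 targets 6 rose, among them the death receptor Fas at 0.75, and 2 fell, among them Psrc1 at -0.59. Neither Fas nor Psrc1 was treatment-independent, and of the 29 targets 1 was and 6 had an interaction. Without the 3 libraries that stood apart 3 rose and 3 fell, and Fas (adjusted p = 0.164) and Psrc1 lost their calls among number-only libraries. Over all genes tested 13.6% were higher and 11.1% lower. Treatment-independent rises were 4.12% of all genes tested and such falls 6.85%, and 9.35% had an interaction. The medians of the neutrophil, fibroblast, ATF4, hypoxia, AP-1 and TGF-beta lists changed sign between alternatives, so no direction is given for them. Endothelial genes rose in 6 of 11, Eng by 0.84 among them, and only Esam was treatment-independent. Without the 3 libraries that stood apart 2 endothelial genes rose.

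No overlap of 10 mutant and 10 vector libraries was found for 33 genes above (0.236% of those tested) and 97 below (0.694%). Of the 130, 107 were treatment-independent, as were 1534 of all 13982 genes tested. Both selections used the same 20 libraries, so the 107 are no separate evidence. The genes above, chosen for mention after their values were seen, were mostly of moderate size. Gpr141, an orphan G protein-coupled receptor, was 0.154 to 2.09 FPKM in vector and 2.69 to 7.23 FPKM in mutant tumours, a difference of 1.45 ± 0.17. Grina, a membrane protein of the BAX inhibitor motif family, was 46.0 to 86.9 against 89.3 to 178 FPKM, a difference of 0.94 in both treatments. Tfe3, a transcription factor of lysosomal genes, rose by 0.53, a call lost among number-only libraries, and Atp6v1b2, a subunit of the vacuolar proton pump, by 0.66. Plcxd3, a phospholipase-like gene, was listed at 0 in all 10 vector tumours and at 0.0204 to 2.62 FPKM in the mutant tumours. Serping1, the C1 inhibitor, was 8.29 to 23.7 against 24.5 to 372 FPKM, but it had an interaction. Ces1f, a carboxylesterase (1.72 ± 0.22), and Clic5, an intracellular channel protein (1.69 ± 0.22), were treatment-independent with overlap in single libraries. Below, Clu, the secreted chaperone clusterin, was 7.26 to 13.5 FPKM in vector and 0.798 to 6.54 in mutant tumours, with an interaction p of 0.00517.

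When the T cell and macrophage scores (mean log2 levels of the marker lists) were added as terms, 18 genes (0.129%) passed, all of them lower in mutant tumours, and 12 of the 18 were treatment-independent in the fit without those terms. The scores themselves moved with genotype and treatment. The median SE rose from 0.13 to 0.30, and the median over all genes moved to -0.17. Among the 576 rises 370 kept their sign, and among the 958 falls 866 did. None of the 15 largest rises passed, and 6 changed sign; the interferon-gamma list had a median of -0.11, near that of all genes in this fit. List medians that changed sign too included MHC class I (-0.15), type I interferon (-0.38), skeletal muscle (-1.45) and ribosomal protein (0.08). Cytotoxic lymphocyte (-0.15), NK cell (-0.45), B and plasma cell (-0.12), dendritic cell (-0.39) and adipocyte (-0.49) medians were also among them. MHC class II (0.26) and endothelial (0.18) medians were among those that kept their sign. All 15 largest falls kept their sign and 4 passed, namely C78283 at -3.14, Dio2 at -3.39, Masp1 at -2.20 and Zfp988 at -1.44. Clu passed as well, at -2.56, and so did Gm773. The score terms take up genotype along with cell content, and a gene that failed here is not shown to come from immune cells.

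**Figure D4:**
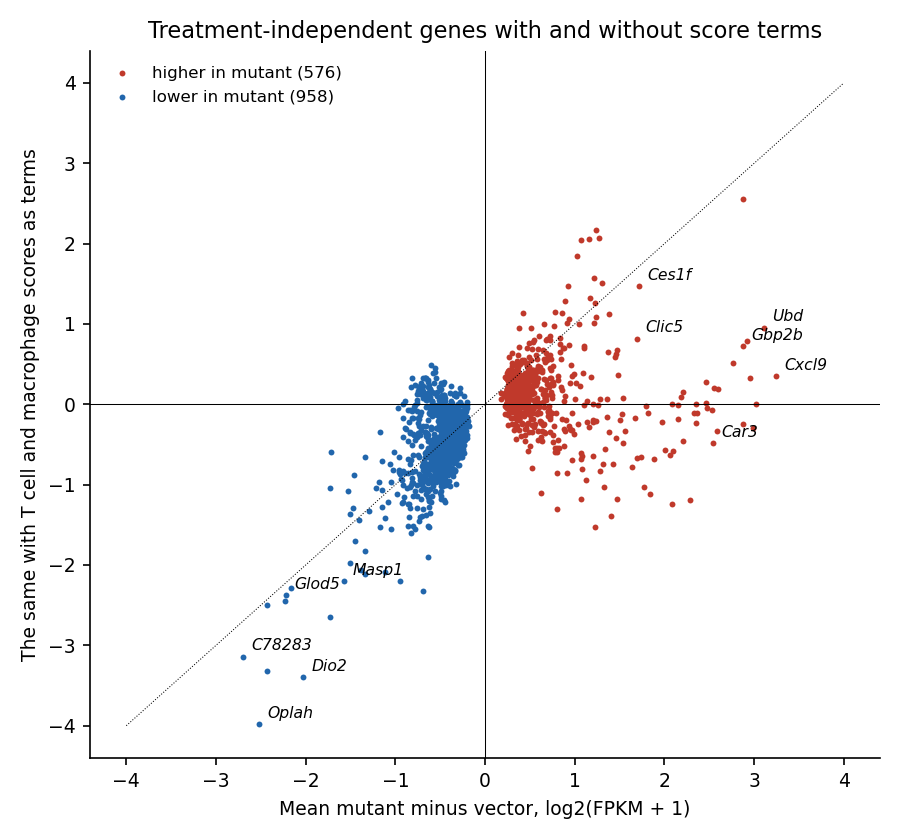
Mean mutant minus vector difference of the 1534 treatment-independent genes (x) against the difference with T cell and macrophage scores as terms (y), on the log2(FPKM + 1) scale; the dotted line marks equality. Of the 576 rises 370 stay above 0, and of the 958 falls 866 stay below 0, Oplah, Dio2 and Gzmc farthest.

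The falls were unevenly placed along the genome. On chromosome 1, 234 of 871 genes tested (26.9%) were lower against 11.1% over all chromosomes, and 168 (19.3%) were treatment-independent falls against 6.85%. On all other chromosomes together 790 genes, or 6.03%, were such falls. The median chromosome 1 difference was -0.18 under PBS and -0.13 under anti-PD-1, in libraries that are not shared, and it was below 0 in every alternative run. Chromosome 1, with 6.23% of the genes tested, held 31 of the 97 genes that lay below without overlap. Rpl7, Rpl31, Xrcc5 and Klhdc8a were among them. Of its genes 41 were called lower in both separate sets and 1 higher, against 161 and 68 over all chromosomes. Mcm6 also lies on chromosome 1. Chromosome 19 had 67 treatment-independent falls and 8 rises among 489 genes, with medians of -0.10 and -0.11. Chromosome 18 went the other way, with 36 treatment-independent rises (9.70%) and 10 falls (2.70%) among 371 genes, against 4.12% and 6.85% over all genes. Its medians were 0.11 and 0.06, but with the immune score terms its median was below 0, as was that of all genes. Of the 33 mitochondrial genes 12 rose (36.4%, against 13.6% of all genes tested), with medians of 0.39 and 0.30. The rises were mostly transfer RNAs such as mt-Ta (1.26) and mt-Tn (1.23), short RNAs whose FPKM is hard to measure, beside mt-Rnr1 (0.93). mt-Td fell by 1.06. Reads of overlapping mitochondrial genes on both strands cannot be told apart where strand is not recorded.

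**Figure D5:**
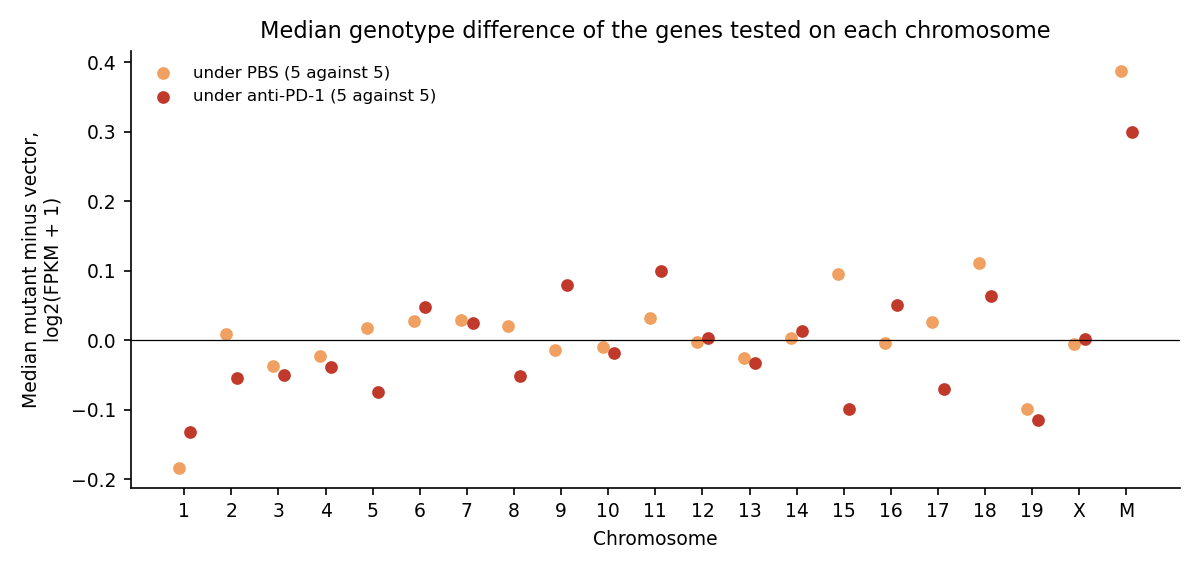
Median mutant minus vector difference of the genes tested on each chromosome, on the log2(FPKM + 1) scale, under PBS (orange) and under anti-PD-1 (red), 5 against 5 libraries each. Chromosome 1 lies at -0.18 and -0.13 and chromosome 19 at -0.10 and -0.11, while 9 chromosomes (2, 5, 8, 9, 12, 15, 16, 17 and X) change sign between the sets.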

How the data were processed

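RNA of 20 tumours was sequenced with standard Illumina protocols after Trizol extraction, per the labels' protocols. The submitters' processing notes name FastQC, STAR 2.5, Cuffnorm, DESeq and mm10, without roles or order. The deposited tables hold 1 FPKM value per Ensembl gene and library, a unit inferred from the values and the named tools; whole reads could not be recovered, so no count test was run. 10 empty columns of the deposited tables were not used.

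The 20 tables were joined (55335 genes, 55154 with a symbol from GENCODE vM21). Genes at 1 FPKM or more in at least 5 libraries (13982) were tested on log2 values, log2(FPKM + 1), which the authors did not deposit; a difference on that scale understates the change of low genes. limma 3.58.1 in R 4.3.3, with a mean-variance trend, fitted 4 group means and the style of the animal identifier (11 libraries with an M and a number, 9 with a number alone), with Benjamini-Hochberg adjustment over all genes and a threshold of 0.05. Contrasts were the mean mutant minus vector difference, the difference under each treatment and their interaction; PBS and anti-PD-1 libraries were also fitted alone. The fit was checked on simulated data. Python 3.11.15 and matplotlib 3.10.9 were used for tables and figures, and promoters came from RefSeq.

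The members, the 33 gene lists and the tests were chosen with earlier results of these data known. Named were Pole and Chek2, the 15 largest treatment-independent rises and falls with a mean log2 level of at least 1, the 10 largest in both separate sets, up to 4 genes of smallest p in each list described, and 4 genes of smallest interaction p in each direction; predicted genes and receptor segments were left out of those. Which lists to describe, and the genes without overlap, were chosen after values were seen. Some items are not reported here. Replicate numbers follow accession order and pair nothing. Alternatives were another pseudocount, other filters, other scalings, other terms, sample weights, identifier styles apart and single or several libraries left out.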

Additional observations from a re-analysis of the deposited data

Results flagged for a closer look

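Among the genes named, 1 library stood far from the other 4 of its group in 32 of 308 gene and group pairs (its gap to the nearest other library was over 0.710 of the range on the log2 scale); chance flags about 1 in 20 groups. In mutant anti-PD-1 replicate 1 these were Gbp4 at 43.3 FPKM (others 121 to 165), Gbp2b at 110 FPKM (others 454 to 600), Iigp1 at 49.3 FPKM (others 132 to 196), Gbp2 at 75.9 FPKM (others 367 to 547), Zap70 at 6.05 FPKM (others 4.36 to 4.76) and H2-D1 at 1311 FPKM (others 860 to 961). In vector anti-PD-1 replicate 4 these were H2-DMb1 at 14.0 FPKM (others 1.86 to 3.52), H2-Eb1 at 57.9 FPKM (others 7.72 to 12.3), H2-Ab1 at 60.8 FPKM (others 9.23 to 11.7), Cd74 at 169 FPKM (others 29.6 to 43.95) and Zap70 at 0.977 FPKM (others 0.246 to 0.327). In vector PBS replicate 2 it was Gvin1 at 0 FPKM (others 2.79 to 3.37). In vector anti-PD-1 replicate 1 these were Gvin1 at 0 FPKM (others 6.48 to 12.2), C78283 at 0.959 FPKM (others 4.93 to 7.46), Masp1 at 1.44 FPKM (others 3.98 to 4.62), Zfp978 at 1.04 FPKM (others 3.36 to 4.70), Nlrc5 at 1.497 FPKM (others 5.88 to 8.61), Pole3 at 44.7 FPKM (others 33.2 to 35.8), Clic5 at 0.140 FPKM (others 1.04 to 1.504), Atp6v1b2 at 9.51 FPKM (others 20.7 to 23.7) and Rpl31 at 1171 FPKM (others 370 to 442). In mutant anti-PD-1 replicate 5 it was C78283 at 0.0769 FPKM (all others listed at 0). In mutant PBS replicate 3 these were Cd28 at 1.17 FPKM (others 0.0665 to 0.221), Ms4a4b at 2.95 FPKM (others 0.231 to 0.634), Zap70 at 1.51 FPKM (others 0.145 to 0.235), Trpm2 at 1.09 FPKM (others 0.186 to 0.396), Ly6c2 at 10.2 FPKM (others 1.39 to 2.64) and Eng at 6.45 FPKM (others 3.44 to 3.96). In vector PBS replicate 3 these were Twnk at 10.4 FPKM (others 11.2 to 11.3) and Xrcc5 at 28.4 FPKM (others 22.0 to 23.6). In mutant PBS replicate 1 it was Ccna2 at 29.9 FPKM (others 39.3 to 43.6). In mutant anti-PD-1 replicate 2 it was Rpl31 at 202 FPKM (others 228 to 237).

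The genotype difference itself differed between treatments, by the interaction contrast at an adjusted p under 0.05, in 14 of the genes named. The mutant minus vector difference was larger under anti-PD-1 for Cd28 (1.61), Ms4a4b (2.51), Zap70 (1.85), Trpm2 (1.54), Cd3d (2.39), Cd8b1 (2.73), Nkg7 (3.11), Ly6c2 (2.08) and Serping1 (2.31), given as log2 differences between the treatments. It was more negative under anti-PD-1 for Rpp38 (-1.02), Baalc (-0.78), Acy1 (-0.71), Twnk (-0.92) and Psrc1 (-0.78). Twnk, for example, was 10.4 to 11.3 FPKM in vector PBS and 9.17 to 11.6 in mutant PBS tumours. Under anti-PD-1 it was 9.42 to 14.4 FPKM in vector and 3.02 to 6.22 in mutant tumours. T cell marker sums were 4.06 to 90.1 FPKM in mutant PBS and 175 to 318 FPKM in mutant anti-PD-1 tumours, and their part in these differences was not tested.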

How the results depend on the processing

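The 4 main counts were 3455 genes in the mean contrast, 1534 treatment-independent, 229 in both separate sets and 1308 in the interaction. Leaving out 1 library at a time gave 2629 to 4991, 1143 to 2496, 114 to 433 and 688 to 2247. Among M-style libraries alone 981 were treatment-independent and 22 in both sets, and among number-only libraries 18 were in both. Without the low-value filter 110 were in both sets, and with quantile normalization 374. At 5 FPKM, where fewer genes are tested, the counts were 2165, 1001, 144 and 663. Sample weights gave 5451, 2768, 943 and 3214. Leaving out the 3 libraries that stood apart gave 2523 treatment-independent genes and 387 interaction genes, and 408 genes without overlap in place of 130, the last an alternative added after seeing the data. With a skeletal muscle term they were 1896, 808 and 85 for the first 3 counts. An adjusted interaction p in the rule gave 2479 treatment-independent genes. With T cell and macrophage scores as terms the counts were 18, 16, 0 and 0 by limma; at an unadjusted p under 0.05 they were 193 in both sets and 279 in the interaction. The cause of these shifts was not tested. Under those score terms the sign changed for Gbp4 (-0.0022), H2-DMb1 (-0.24), Gbp10 (-0.33), Car3 (-0.49), Gvin1 (-0.046), Gbp6 (-0.23), Rpp38 (0.051), Nkg7 (-0.095) and B2m (-0.021); Chek2 changed sign (0.0024) without the identifier style term. The higher share of calls was 55.2% in the main fit, 44.3% with sample weights, 45.7% without the 3 libraries and 44.4% without vector anti-PD-1 replicate 1. No paired analysis was possible because the labels give no replicate numbers shared across groups. Depth is unknown, so no limit for a value listed at 0 can be given.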
